A study of Mus musculus with 6 samples.

Results

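The RGS genes encode regulators of G-protein signalling, and 8 of them, Rgs1, Rgs2, Rgs3, Rgs10, Rgs14, Rgs16, Rgs18 and Rgs19, are described here across 6 RNA libraries of sorted mouse T cells. The members were taken by symbol, as the 8 genes of these names among the 38924 genes counted, and all 8 had enough reads to be tested. The tested cells were CD4+CD25+ T cells with ILT3 on the surface (ILT3+, 3 samples), and they were set against CD4+CD25+ T cells without it (ILT3-, 3 samples). ILT3 is an inhibitory receptor best known from antigen-presenting cells, and CD25, a subunit of the IL-2 receptor, marks a fraction of CD4+ T cells rich in regulatory T cells. Both groups came from untreated wild-type (WT) syngeneic mice, male and female, aged 10 to 16 weeks, with spleen and mesenteric lymph node cells processed alike, pre-enriched for CD25 with magnets and then sorted on a cytometer. The labels give no deletion or transgene in either group and no difference between them other than the sort. How many animals gave a sample, and whether the samples are separate animals, is not stated in the labels, so each p-value speaks only of the spread among these 6 samples, and that spread may in part be technical.

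G-protein-coupled receptors, among them all chemokine receptors, act by loading GTP onto the alpha subunit of a G protein. RGS proteins bind the loaded alpha subunit and speed up the hydrolysis of its GTP, which ends the signal, and in lymphocytes they are known for setting how strongly and how long cells respond to chemokines. The members fall into subfamilies by their RGS domain and flanking parts. Rgs1, Rgs2, Rgs3, Rgs16 and Rgs18 belong to the R4 group of mostly small proteins, Rgs10 and Rgs14 to the R12 group together with Rgs12, and Rgs19 to the RZ group.

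On GRCm38, Rgs2 (chr1:143999338-144004161), Rgs1 (chr1:144243972-144249242) and Rgs18 (chr1:144752683-144775435) lie on the minus strand of chromosome 1 in one cluster of 5 RGS genes that spans 776 kb, with Rgs13 and Rgs21 between them. Rgs16 (chr1:153740349-153745468, plus strand) lies apart from them on the same chromosome. Rgs19 lies at chr2:181688419-181693977 (minus strand), Rgs3 at chr4:62559847-62704001 (plus), Rgs10 at chr7:128373621-128418758 (minus) and Rgs14 at chr13:55369732-55384687 (plus). RefSeq promoter entries (GRCm38.p6) matched 5 of the 8 members, Rgs2, Rgs3, Rgs10, Rgs16 and Rgs19. The 250 bases before the RefSeq start of 3 of them are printed 5′ to 3′ on the gene's strand. This start differs from that of the counted gene models. The Rgs10 window lies wholly inside the model given above, and the Rgs2 and Rgs16 windows overlap the edge of theirs. Rgs10 was chosen as the member with more than a few reads whose groups did not overlap. Rgs2 and Rgs16 were chosen as activation-linked R4 genes whose levels varied most between ILT3- libraries among the matched members. Capitals mark, on either strand, the core of the cAMP response element (TGACG or its complement CGTCA), the CCAAT box (CCAAT or ATTGG) and the GC box (GGGCGG or CCGCCC).
Rgs10 (chr7:128418173-128418422): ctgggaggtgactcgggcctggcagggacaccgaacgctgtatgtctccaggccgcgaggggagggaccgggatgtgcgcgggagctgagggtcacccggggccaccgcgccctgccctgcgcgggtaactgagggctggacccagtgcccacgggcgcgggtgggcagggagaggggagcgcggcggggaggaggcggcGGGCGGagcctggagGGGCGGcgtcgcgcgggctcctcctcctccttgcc
Rgs2 (chr1:144004150-144004399): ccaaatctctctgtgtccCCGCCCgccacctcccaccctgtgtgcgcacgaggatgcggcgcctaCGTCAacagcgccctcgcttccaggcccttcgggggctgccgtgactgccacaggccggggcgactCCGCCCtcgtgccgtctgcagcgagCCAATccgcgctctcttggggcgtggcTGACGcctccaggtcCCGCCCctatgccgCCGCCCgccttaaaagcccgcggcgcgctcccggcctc
Rgs16 (chr1:153740103-153740352): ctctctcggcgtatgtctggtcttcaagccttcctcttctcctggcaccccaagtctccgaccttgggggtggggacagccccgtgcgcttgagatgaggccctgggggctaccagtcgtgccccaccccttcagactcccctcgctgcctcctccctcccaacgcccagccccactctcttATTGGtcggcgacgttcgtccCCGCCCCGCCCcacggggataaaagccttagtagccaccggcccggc
The Rgs2 window held 2 cAMP response element cores, 4 GC boxes and 1 CCAAT box. The Rgs16 window held 2 GC boxes and 1 CCAAT box, and the Rgs10 window held 2 GC boxes. Of 32851 promoter windows of this length, 17.8% held the cAMP response element core, 32.7% a GC box and 33.8% a CCAAT box, so that GC and CCAAT boxes are common in such windows. A TATA box (TATAAA, present in 12.4% of windows) was found in both annotated starts of Rgs3, and an AP-1 site (TGANTCA, 6.75% of windows) in no window of the 5 members. These matches describe letters and no binding.

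Libraries held 9334370 to 13648274 gene reads. Values are given in CPM, the reads of a gene per 1000000 gene reads after scaling library sizes with the TMM method. Lilrb4, the gene for ILT3, was at 304, 284 and 407 CPM in ILT3+ libraries 1, 2 and 3, against 3.24, 4.32 and 5.81 CPM in ILT3- libraries 1, 2 and 3. The sort label thus held in all 6 libraries, with 50.9% of these reads placed uniquely. Of 10 T cell markers, which include the CD3 chains, 10 were tested and edgeR called 0 (2 had an unadjusted p under 0.05, DESeq2 called 1 and voom 0). With the sample number as a block 2 of them, Cd5 and Cd28, named after their values were seen, were lower in ILT3+ (log2 fold change -0.89 and -0.68, adjusted p = 0.0146 and 0.0230). The markers had a summed level of 4374 to 5069 CPM in ILT3+ and 5438 to 6959 CPM in ILT3- libraries. Cd4, Il2ra (CD25) and Foxp3, the transcription factor of regulatory T cells, were present in every library and did not pass the test (adjusted p = 0.574, 0.80 and 0.999). Both libraries numbered 1 lay away from the other 4 on the second principal component (32.0% of variance). Their share of mitochondrial ribosomal RNA was 2.27% in ILT3+ library 1 and 2.96% in ILT3- library 1, against 1.13% to 1.66% in the others.

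ILT3+ cells had more Rgs18 RNA than ILT3- cells, at a low level, and this was the 1 of 8 members called by edgeR's quasi-likelihood test at the adjusted p threshold of 0.05. Rgs18 passed the expression filter only through the ILT3+ libraries, and its call was lost in 8 of the 19 alternatives that gave a value. Over all 13694 genes tested, 2.31% were called, 1.96% higher and 0.343% lower in ILT3+. Rgs10 was lower in every ILT3+ library than in any ILT3- library without passing, and Rgs1 was higher in each ILT3+ library than in the ILT3- library of the same number. Rgs1 and the remaining members, Rgs2, Rgs3, Rgs14, Rgs16 and Rgs19, overlapped between groups. Groups did not overlap for 2 of 8 members, against 20.2% of all genes tested, and 5 of 8 members moved the same way in all 3 pairs of equal number, against 45% of all genes. The median log2 fold change of the 8 members was -0.06, against -0.02 over all genes. The sample numbers were taken to pair the libraries because deviations from the group means correlated within each number. Libraries numbered 2 and 3 also correlated with each other across the groups, so the check sets apart only the libraries numbered 1. With the number as a block 3 of 8 members passed, Rgs1, Rgs10 and Rgs18, against 6.81% of all genes. Without both libraries numbered 1 the same 3 members passed, against 5.64% of all genes.

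**Figure D1:**
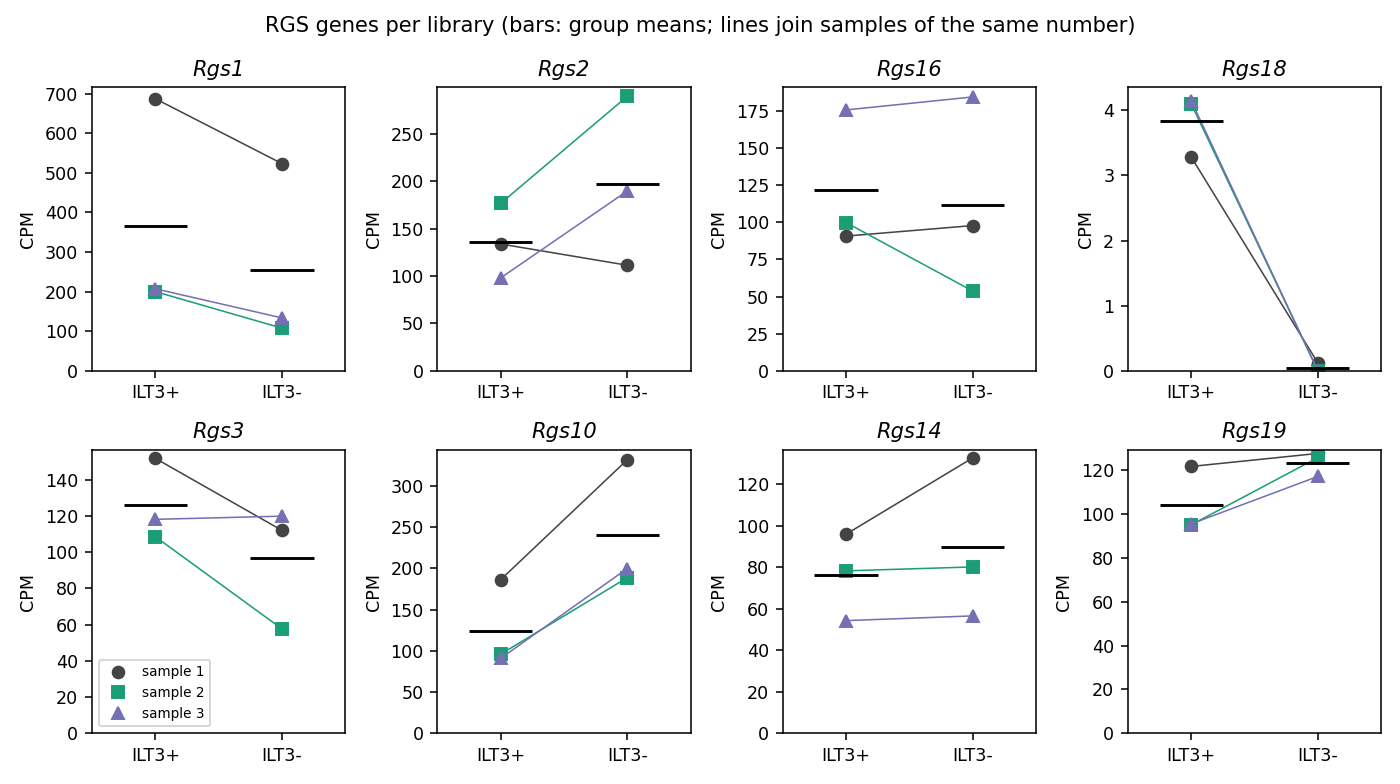
CPM of each of the 8 members (y axis, from 0) in ILT3+ and ILT3- libraries (x axis). Symbols are libraries, lines join libraries of the same number and horizontal bars are group means. Rgs18 and Rgs10 are the members without overlap between groups, and the library numbered 1 is the highest for Rgs1 in both groups.

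Rgs1, which dampens chemokine-driven migration of B and T cells, was the member with the most CPM on average in both groups. It was at 687, 200 and 207 CPM in ILT3+ libraries 1, 2 and 3, against 523, 107 and 133 CPM in ILT3- libraries 1, 2 and 3. In both groups library 1 was far above libraries 2 and 3, and the groups overlapped. ILT3+ libraries averaged 364 ± 279 CPM and ILT3- libraries 255 ± 233 CPM (SD, n = 3 each), with a log2 fold change of 0.52 (SE 0.70, 95% interval -1.11 to 2.15, adjusted p = 0.834). Within numbers, the log2 ratio of ILT3+ over ILT3- was 0.39, 0.89 and 0.63, so Rgs1 was higher in ILT3+ in 3 of 3 pairs. With the block Rgs1 passed (adjusted p = 0.0386), at 0.64 on the log2 scale (SE 0.13). The direction without the block rested on 1 library, since leaving out ILT3+ library 1 gave -0.32 (adjusted p = 0.894). Without both libraries numbered 1 the log2 fold change was 0.78 (adjusted p = 0.0421), and with the block the call was lost without the pair numbered 2 (adjusted p = 0.226) or 3 (adjusted p = 0.200).

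Rgs2, an R4 protein with preference for the Gq class of alpha subunits, was lower in ILT3+ in 2 of 3 pairs and did not pass. It was at 134, 177 and 97.9 CPM in ILT3+ libraries 1, 2 and 3, against 111, 289 and 190 CPM in ILT3- libraries 1, 2 and 3. ILT3+ libraries 2 and 3 were below their ILT3- counterparts and ILT3+ library 1 was above its own, and the groups overlapped. On the log2 scale the fold change was -0.53 (SE 0.36, adjusted p = 0.610), and -0.47 with the block (adjusted p = 0.324). Pairs 2 and 3 had log2 ratios of -0.71 and -0.95 and pair 1 one of 0.27. It passed in 1 of 20 alternatives, a setting added once the values were known that combines the block with leaving out pair 1, the pair of the other direction (log2 fold change -0.80, adjusted p = 0.00191). The block without pair 2 gave -0.33 (adjusted p = 0.732) and without pair 3 gave -0.23 (adjusted p = 0.754), and leaving out both libraries numbered 1 with no block gave -0.78 (adjusted p = 0.227).

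Rgs3, a larger member made as several isoforms that acts on Gi and Gq alpha subunits, did not differ detectably. It was at 152, 108 and 118 CPM in ILT3+ libraries 1, 2 and 3, against 112, 57.6 and 120 CPM in ILT3- libraries 1, 2 and 3. ILT3- library 2 was the lowest of the 6, and pair 3 was nearly equal. A log2 fold change of 0.39 (SE 0.29, 95% interval -0.29 to 1.06, adjusted p = 0.663) did not pass, nor did 0.44 with the block (adjusted p = 0.265). Of its reads 75.7% were placed uniquely, the smallest share among the members, and 32.3% to 38.0% lay in introns in each library. Its model overlaps the predicted gene Gm11209, which had 3 reads in all libraries together.

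Rgs16, an R4 protein that is induced on lymphocyte activation, was highest in library 3 of both groups. It was at 90.7, 99.9 and 176 CPM in ILT3+ libraries 1, 2 and 3, against 97.8, 53.7 and 184 CPM in ILT3- libraries 1, 2 and 3. In pairs 1 and 3 the values differed little, and in pair 2 ILT3+ was higher. Its log2 fold change was 0.12 (SE 0.45, 95% interval -0.91 to 1.16, adjusted p = 0.948), and 0.23 with the block (adjusted p = 0.613). Without ILT3- library 2 it was -0.20 (adjusted p = 0.935) and without ILT3+ library 3 it was -0.22 (adjusted p = 0.954), so no direction can be given. Intron shares of Rgs2 and Rgs16 also followed the number. For Rgs2 they were 19.5%, 4.78% and 6.03% in ILT3+ libraries 1, 2 and 3 and 21.2%, 4.83% and 5.67% in ILT3- libraries 1, 2 and 3. For Rgs16 they were 21.3%, 3.54% and 4.81% in ILT3+ and 18.4%, 1.46% and 4.57% in ILT3- libraries in the same order. Both genes thus had a larger intronic share in the libraries numbered 1 of either group.

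Rgs18, an R4 protein known from platelets and megakaryocytes, where it limits Gi and Gq signals, was found almost only in ILT3+ libraries. It had 35, 51 and 52 reads in ILT3+ libraries 1, 2 and 3, against 1, 0 and 0 reads in ILT3- libraries 1, 2 and 3. In CPM these were 3.28, 4.10 and 4.15 in ILT3+ libraries, against 0.12, 0 and 0 in ILT3- libraries. The 3 ILT3+ libraries lay close together and none of the ILT3- libraries reached them, while 3 reads, the limit that a count of 0 allows, stand for 0.218 to 0.360 CPM. Summed over libraries, 138 reads against 1 gave a ratio of 135 per unit of library size, with an exact 95% interval of 23.8 to 5364 that covers counting error only. The fitted log2 fold change of 6.55 (SE 1.04, adjusted p = 0.0216, with the block 0.0221) depends on the prior count used for genes near 0, and the gene passed the expression filter only through the ILT3+ libraries. The call was lost without ILT3+ library 2 (adjusted p = 0.0980), ILT3+ library 3 (0.0986), ILT3- library 2 (0.113) or ILT3- library 3 (0.112), and on exon reads alone (0.0653). Intronic reads made up 45.7%, 3.92% and 59.6% of Rgs18 reads in ILT3+ libraries 1, 2 and 3, so the exon reads were 19, 49 and 21 against 1, 0 and 0 in ILT3- libraries.

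In RNA from many cells, fewer cells of a type and less RNA per cell cannot be told apart, which holds for every member. Markers of other cell types were set beside Rgs18 for this reason. Of 10 platelet and megakaryocyte markers 2 had enough reads and edgeR called 0 (1 had an unadjusted p under 0.05, DESeq2 and voom called 0), their summed level was 46.0 to 80.8 CPM in ILT3+ and 37.4 to 42.1 CPM in ILT3- libraries, and Pf4 and Ppbp, abundant in platelets, had 0 reads in all 6 libraries. Of 12 dendritic cell markers 8 were tested and 5 were called, all higher, namely Batf3, H2-Aa, H2-Ab1, H2-Eb1 and Ciita. The rest of the list, Itgax, Zbtb46, Flt3, Xcr1, Clec9a, Cd209a and Siglech, were untested or not called, and with the block 6 of the list were called higher. The whole list summed to 590 to 1199 CPM in ILT3+ and 33.9 to 60.4 CPM in ILT3- libraries. Of 8 NK and innate lymphoid markers 3 were tested and 3 were called higher, namely Kit, Tyrobp and Il1rl1, while the NK cell genes Ncr1, Klrb1c, Eomes, Klra8 and Klre1 had too few reads to be tested. The list summed to 249 to 511 CPM in ILT3+ and 37.6 to 44.7 CPM in ILT3- libraries. Erythroid markers (8, of which 5 were tested) summed to 95.7 to 290 CPM in ILT3+ and 4.01 to 8.43 CPM in ILT3- libraries. Car2, Hba-a1 and Hba-a2 were the 3 called higher. Of the 3 NK and innate lymphoid calls and of the 3 erythroid calls voom made 1 each, while it called 5 of the dendritic markers. Without ILT3- library 3 the calls of H2-Aa, H2-Ab1, H2-Eb1 and Batf3 were lost (adjusted p of up to 0.0806). Those of H2-Ab1 and H2-Eb1 were also lost without ILT3- library 2 (0.0729 and 0.0579). Those of H2-Eb1 and Batf3 were also lost without ILT3+ library 2 (0.0526 and 0.0731), and that of Batf3 without ILT3+ library 3 (0.0734). Those of Tyrobp and Il1rl1 were lost without ILT3+ library 2 or 3 or ILT3- library 2 or 3 (up to 0.177), whereas Kit was called in all 20 alternatives. Macrophage markers (12, of which 8 were tested and edgeR called 0, with 0 by DESeq2 or voom, 3 with the block, all higher, and 4 whose unadjusted p was under 0.05) summed to 32.2 to 1095 CPM in ILT3+ and 12.5 to 36.4 CPM in ILT3- libraries, and B cell markers (10, of which 7 were tested and 0 called by edgeR, voom or DESeq2, 2 having an unadjusted p under 0.05) to 38.5 to 80.8 CPM in ILT3+ and 23.2 to 36.4 CPM in ILT3- libraries. Neutrophil markers (8, none tested) summed to at most 0.402 CPM in ILT3+ and 0.236 CPM in ILT3- libraries, and mast cell and basophil markers (8, of which 2 were tested and 0 reached even an unadjusted p under 0.05 in edgeR or a call by DESeq2 or voom) to 0.724 to 5.25 CPM in ILT3+ and 1.96 to 9.61 CPM in ILT3- libraries. The part of cells that carry the dendritic, innate lymphoid, erythroid or macrophage markers in the Rgs18 difference was not tested. Among 8606 genes of at least 10 CPM, those whose log2 CPM followed Rgs18 most closely over the 6 libraries were Fcer1g, the gamma chain of Fc receptors (Pearson r = 0.997), Id2, an inhibitor of E-protein transcription factors (0.996), and Stom, which encodes the membrane protein stomatin (0.996). These coefficients describe 2 groups of 3 libraries. Fcer1g was at 143, 153 and 140 CPM in ILT3+ libraries 1, 2 and 3, against 7.21, 6.21 and 5.38 CPM in ILT3- libraries, so it had reads in both groups. Rgs18 had almost none in ILT3- libraries, but its level in ILT3+ was low, and whether its fold differed from that of Fcer1g was not tested.

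Rgs10, a small R12 protein selective for the Gi class and best known from microglia and macrophages, was the member whose ILT3+ libraries all lay below the ILT3- libraries. It was at 186, 95.9 and 90.8 CPM in ILT3+ libraries 1, 2 and 3, against 331, 189 and 200 CPM in ILT3- libraries 1, 2 and 3. The highest ILT3+ library, number 1, was just below the lowest ILT3- library, number 2. ILT3+ libraries averaged 124 ± 53.6 CPM and ILT3- libraries 240 ± 79.5 CPM (SD, n = 3 for both). Its log2 fold change of -0.95 (SE 0.35, 95% interval -1.75 to -0.15) had an unadjusted edgeR p of 0.0258 and did not pass after adjustment (adjusted p = 0.266). With the block it was -0.98 (SE 0.12, adjusted p = 0.00839), and the log2 ratios within numbers were close to each other, at -0.83, -0.98 and -1.14. Without both libraries numbered 1 the log2 fold change was -1.03 (adjusted p = 0.0109). With the block, the call was lost without the pair numbered 2 (adjusted p = 0.0828) or 3 (adjusted p = 0.0953), while the log2 fold change stayed between -1.03 and -0.91. Of the reads of Rgs10 97.8% were unique, and the predicted gene Gm15503 inside it had 4 reads in all libraries. The summed macrophage markers were highest in ILT3+ library 1, the ILT3+ library with the most Rgs10, and their part in its level was not tested.

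Rgs14, an R12 protein that carries a GoLoco motif for inactive Gi subunits and Ras-binding domains beside its RGS domain, was at 96.0, 78.3 and 54.3 CPM in ILT3+ libraries 1, 2 and 3, against 133, 80.2 and 56.6 CPM in ILT3- libraries 1, 2 and 3. The order of the numbers was the same in both groups, and the pairs numbered 2 and 3 were nearly equal. Its log2 fold change was -0.24 (SE 0.34, 95% interval -1.03 to 0.56, adjusted p = 0.848), and -0.19 with the block (adjusted p = 0.559). It was lower in ILT3+ in 3 of 3 pairs but took the other sign, 0.15, without ILT3- library 1 (adjusted p = 0.872). The pair count depends on the match of numbers 2 and 3, which the data do not settle. ILT3+ library 2 (78.3 CPM) lay above ILT3- library 3 (56.6 CPM).

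Rgs19, the RZ member, which acts on the Gi class and carries a string of cysteines, varied little between libraries. It was at 122, 95.1 and 95.6 CPM in ILT3+ libraries 1, 2 and 3, against 128, 126 and 117 CPM in ILT3- libraries 1, 2 and 3. Every ILT3+ library was below its ILT3- counterpart, though ILT3+ library 1 was above ILT3- library 3. On the log2 scale the fold change was -0.25 (SE 0.17, 95% interval -0.64 to 0.15, adjusted p = 0.619), and -0.26 with the block (adjusted p = 0.337). This interval is the narrowest of the 8 members without the block. The authors also counted reads that cross from exon to exon, of which Rgs19 had 129, 106 and 121 in ILT3+ and 107, 163 and 171 in ILT3- libraries. Scaled to library size these did not overlap between groups and were lower in ILT3+. On these reads the groups were apart for 3 of the 15 tested RGS genes, Rgs19, Rgs18 and Rgs12, against 14.6% of all genes tested.

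To compare members with each other, exon reads were divided by exon length and by scaled library size (exon reads per kilobase and per 1000000 gene reads). On this scale Rgs10 was the most abundant member in all 3 ILT3- libraries, and Rgs1 in 2 of the 3 ILT3+ libraries, with Rgs16 first in ILT3+ library 3. The level of Rgs10 was 63.3 ± 31.5 in ILT3+ and 117 ± 46.0 in ILT3- cells, and that of Rgs1 was 87.4 ± 65.7 in ILT3+ and 60.0 ± 52.6 in ILT3- cells (SD, n = 3 each, as for all levels here). The next were Rgs16, Rgs19 and Rgs2 in ILT3+ and Rgs19, Rgs2 and Rgs16 in ILT3-, in these orders. Rgs16 was at 47.7 ± 21.3 in ILT3+ and 44.0 ± 27.7 in ILT3- cells, Rgs19 at 42.4 ± 5.78 in ILT3+ and 51.6 ± 1.84 in ILT3- cells, and Rgs2 at 33.8 ± 11.1 in ILT3+ and 49.8 ± 25.9 in ILT3- cells. Levels of these 5 and of Rgs14, at 24.9 ± 9.56 in ILT3+ and 28.6 ± 13.3 in ILT3- cells, overlapped between neighbours in the order of both groups. Rgs3 was below Rgs14 in every library, at 7.67 ± 1.17 in ILT3+ and 5.65 ± 1.90 in ILT3- cells, and Rgs18 was below Rgs3 in every library, at 1.21 ± 0.63 in ILT3+ and 0.020 ± 0.034 in ILT3- cells. The 8 levels summed to 417, 254 and 254 in ILT3+ libraries 1, 2 and 3, against 452, 295 and 324 in ILT3- libraries 1, 2 and 3. Rgs1 took 39.2%, 19.2% and 19.7% of that sum in ILT3+ libraries and 26.7%, 9.18% and 9.98% in ILT3- libraries, and Rgs10 took 23.9%, 17.98% and 17.5% in ILT3+ and 37.7%, 29.9% and 28.8% in ILT3- libraries. Within each number, then, the share of Rgs1 was larger and that of Rgs10 smaller in ILT3+ cells.

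**Figure D2:**
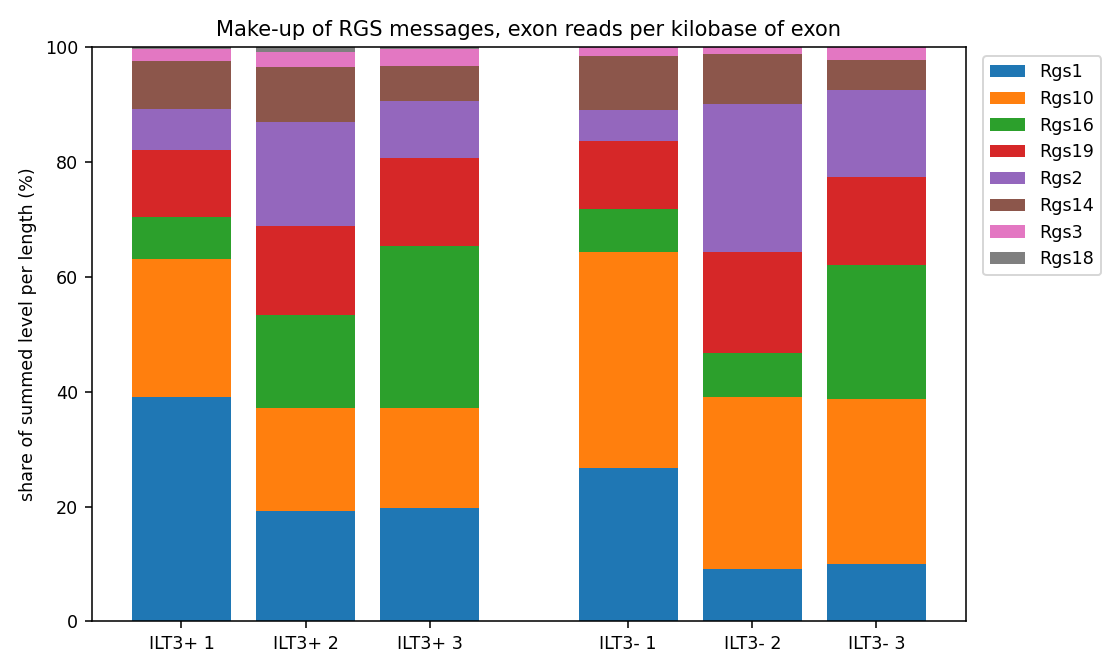
Share of each member (%, y axis) in the summed level of the 8 members, as exon reads per kilobase and 1000000 gene reads, in each library (x axis, ILT3+ left of ILT3-). The Rgs10 segment ranges from 17.5% to 23.9% in ILT3+ and from 28.8% to 37.7% in ILT3- libraries, and Rgs18 is barely visible.

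Of the 13 other RGS genes in the files, 7 had enough reads to be tested, and Rgs12, the R12 relative of Rgs10 and Rgs14 that also carries a GoLoco motif, passed. Rgs12 (chr5:34949445-35039644, plus strand) was at 34.99, 45.7 and 44.2 CPM in ILT3+ libraries 1, 2 and 3, against 5.29, 9.43 and 10.97 CPM in ILT3- libraries 1, 2 and 3. The groups were far apart in every library. It passed with and without the block (adjusted p = 0.00709 and 0.0177), at a log2 fold change of 2.27 (SE 0.34) in the fit without it. The call was lost without ILT3+ library 2 (adjusted p = 0.0906), ILT3+ library 3 (0.0867), ILT3- library 2 (0.0820) or ILT3- library 3 (0.0651), with log2 fold changes of 2.22 to 2.49. Within the R12 group, ILT3+ cells thus had more Rgs12 and, in each pair, less Rgs10, while Rgs14 overlapped. Rgs9, an R7 protein known from photoreceptors and the striatum, named after its values were seen, was at 20.5, 40.9 and 34.7 CPM in ILT3+ libraries 1, 2 and 3, against 27.6, 64.9 and 57.2 CPM in ILT3- libraries, and did not pass (log2 fold change -0.64, adjusted p = 0.549). Rgs6, Rgs7, Rgs20 and Rgs22 were tested at low levels and did not pass. Rgs11, another R7 protein, also named after its values were seen, had 82, 0 and 3 reads in ILT3+ libraries 1, 2 and 3, against 134, 55 and 44 reads in ILT3- libraries. It was lower in ILT3+ in 3 of 3 pairs, the groups overlapped, and it did not pass without the block (log2 fold change -1.57, adjusted p = 0.755) or with it (-3.14, adjusted p = 0.167). Its value turned on ILT3+ library 1, without which it was -5.91 (adjusted p = 0.0948), and without both libraries numbered 1 it passed at -4.83 (adjusted p = 0.0476). Of the untested genes, Rgs4, Rgs5, Rgs8 and Rgs17 had at most 19 reads in any library, and Rgs13 and Rgs21 of the chromosome 1 cluster at most 4. Of the 3 members in that cluster, Rgs18 was called higher, Rgs1 was higher in every pair and Rgs2 was lower in 2 of 3 pairs without passing. Over all 21 RGS genes 15 were tested, of which 2 passed, against 2.31% of all genes tested. With the block 4 passed, against 6.81% of all genes tested.

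**Figure D3:**
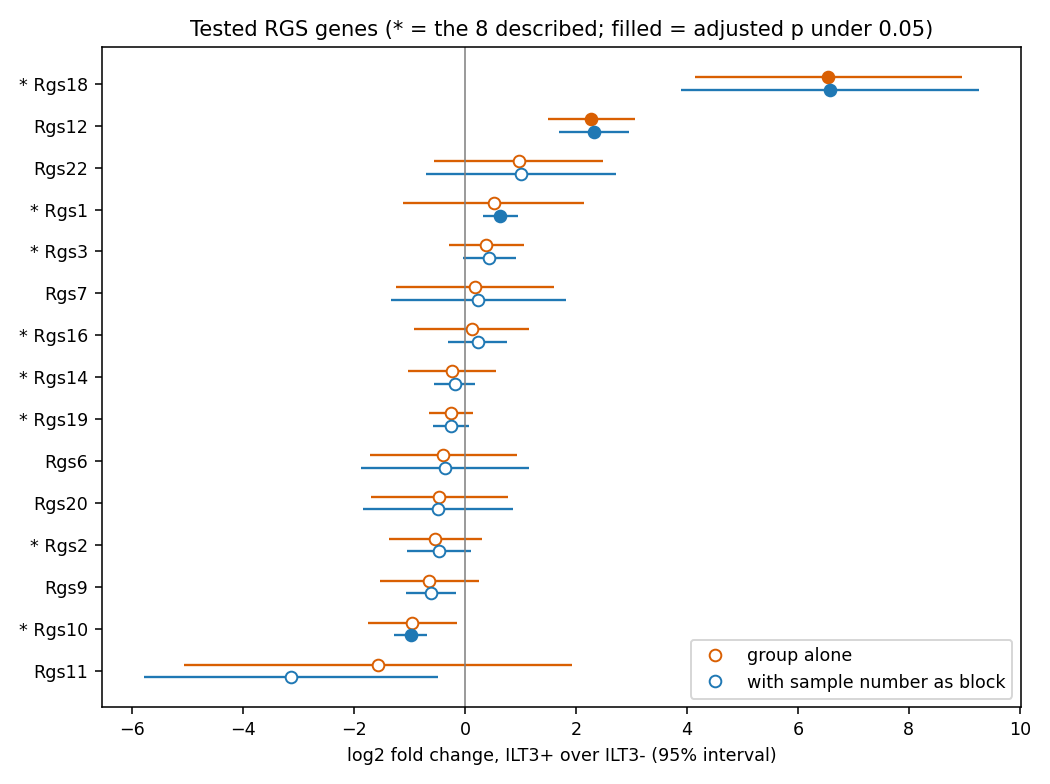
Log2 fold change of ILT3+ over ILT3- (x axis) with its 95% interval for the 15 tested RGS genes (y axis), without and with the sample number as a block. Filled points have an adjusted p under 0.05. The block narrows the intervals of Rgs1 and Rgs10, while Rgs18 and Rgs12 are called in both fits.

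**Figure D4:**
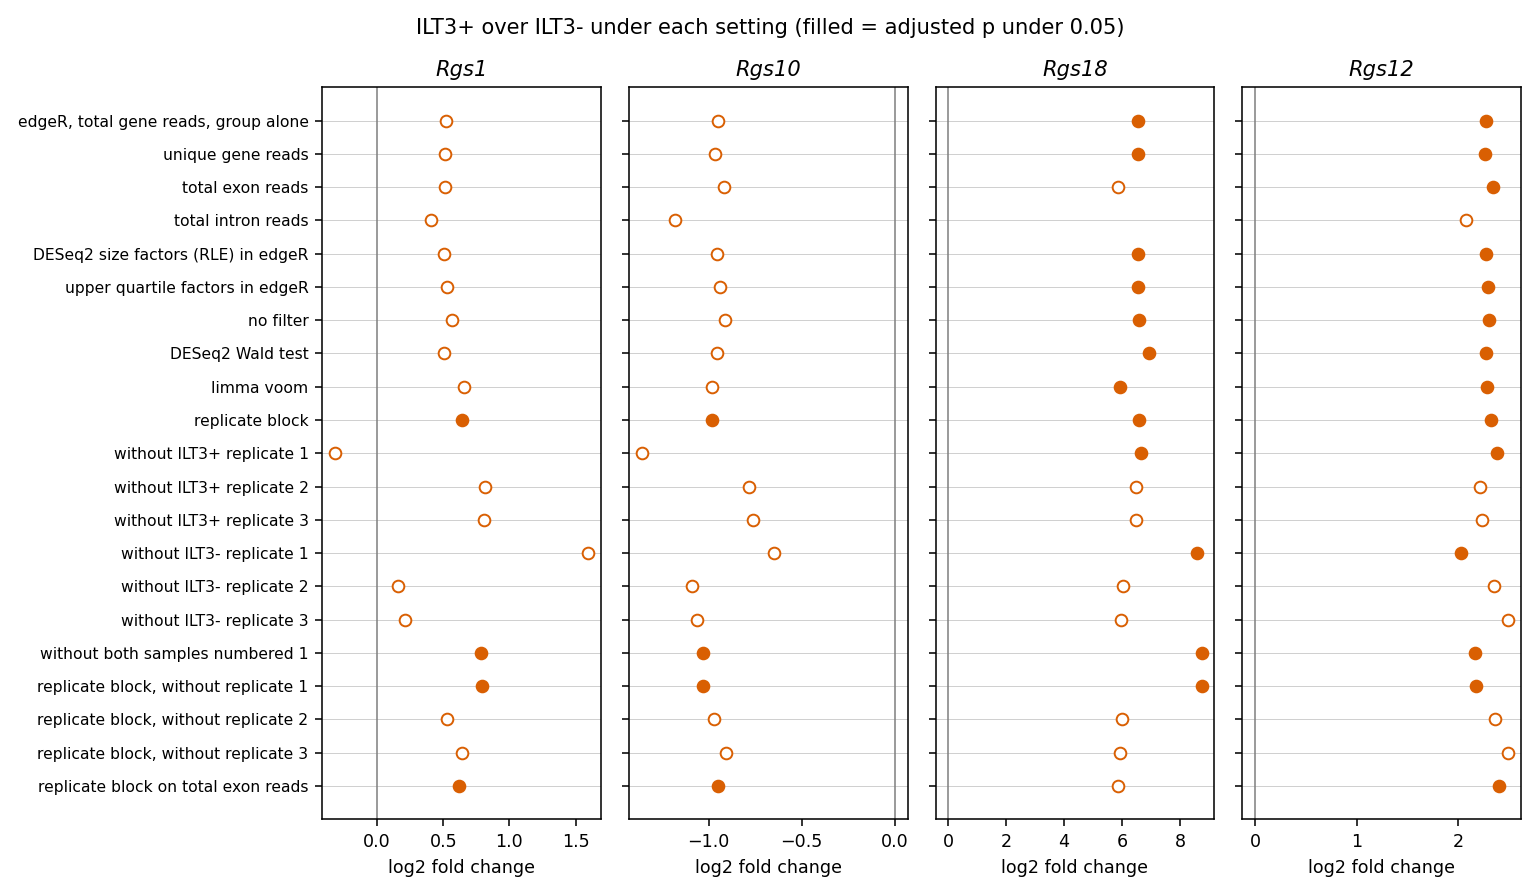
Log2 fold change of ILT3+ over ILT3- (x axis) for Rgs1, Rgs10, Rgs18 and Rgs12 under each setting (y axis). Filled points have an adjusted p under 0.05. Rgs10 stays below 0 and Rgs18 and Rgs12 above 0 in every setting run, while Rgs1 lies below 0 without ILT3+ replicate 1. Intron reads gave no value for Rgs18.

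RGS proteins end the signals of chemokine receptors, and 4 of these receptors were higher in ILT3+ cells. Of 18 chemokine receptors in the list 15 were tested, of which 4 were called higher, against 1.96% of all genes, and 0 lower, with a median log2 fold change of 1.74 against -0.02 over all genes. This list and those below were chosen with earlier results of these data known, so such shares and medians are description and no test. Cxcr3, a receptor of type 1 immune cells, was at 122, 123 and 100 CPM in ILT3+ libraries 1, 2 and 3, against 38.3, 39.9 and 44.1 CPM in ILT3- libraries (log2 fold change 1.49, SE 0.18, adjusted p = 0.00980). Cxcr6 (log2 fold change 5.36, adjusted p = 0.0277) and Ccr2 (log2 fold change 1.74, adjusted p = 0.0380) were among the others. Only 8.47% of Cxcr6 reads were unique, and on those reads alone its call was lost (adjusted p = 0.107). With the block 6 of the chemokine receptors were called higher and 1 lower, against 573 and 359 of all 13694 genes tested. DESeq2 called 7 of them, against 948 of 13384 genes. The calls of Cxcr3, Cxcr6 and Ccr2 were each lost without ILT3+ library 2, ILT3- library 2 or ILT3- library 3, with adjusted p of up to 0.150, those of Cxcr6 and Ccr2 also without ILT3+ library 3, and that of Ccr2 without any of the 6. The list of dendritic markers (590 to 1199 CPM in ILT3+ and 33.9 to 60.4 CPM in ILT3- libraries) also summed higher in ILT3+. So did the lists of innate lymphoid and erythroid markers given with Rgs18. Dendritic genes such as Itgax, Zbtb46 and Flt3 were untested or not called there, and the NK cell genes were untested. The part of these markers in the counts of these and of the other receptors was not tested.

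Of 39 other receptors of immune cells 31 were tested, of which 5 were called higher, against 1.96% of all genes, and 1 lower, against 0.343%. With the block 8 were called higher and 4 lower, against 573 and 359 of all 13694 genes tested. The same lists of dendritic, innate lymphoid and erythroid markers summed higher beside these receptors. F2r, the thrombin receptor, was at 214, 181 and 191 CPM in ILT3+ libraries 1, 2 and 3, against 27.8, 17.3 and 24.6 CPM in ILT3- libraries (log2 fold change 3.07, SE 0.23, adjusted p = 0.00150) and was called in all 20 alternatives. P2ry1, an ADP receptor, had 62, 41 and 48 reads in ILT3+ libraries and 0 in each ILT3- library, and it passed the expression filter only through the ILT3+ libraries. The colon-homing receptor Gpr15 (log2 fold change 1.99, adjusted p = 0.0262) and the lipid receptor Gpr55 (2.97, adjusted p = 0.0347) were also higher. Gpr174, a lysophosphatidylserine receptor named after its value was seen, was the 1 called lower (log2 fold change -1.10, adjusted p = 0.0443). Calls of P2ry1, Gpr15, Gpr55 and Gpr174 were lost without ILT3+ library 2 or 3 or ILT3- library 2 or 3, with adjusted p of up to 0.190, and those of Gpr15, Gpr55 and Gpr174 also without ILT3+ library 1.

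No alpha subunit, the substrate of RGS proteins, was called by edgeR. Of 16 alpha subunit genes 10 were tested and 0 passed, 1 at an unadjusted p under 0.05, and DESeq2 and voom called 1 each, with a median log2 fold change of 0.03. That gene was Gna15, a Gq-class subunit of blood cells named after its value was seen, at 40.2, 43.3 and 46.6 CPM in ILT3+ libraries 1, 2 and 3, against 22.7, 11.3 and 18.2 CPM in ILT3- libraries (log2 fold change 1.32, adjusted p = 0.0752, with the block 0.0382). Of 17 beta and gamma subunit genes 9 were tested and edgeR called 0, 1 of them at an unadjusted p under 0.05, and DESeq2, voom and the block called 0. Of 8 other modulators of the GTP cycle, guanine exchange factors and GoLoco proteins among them, 8 were tested and edgeR called 0 (1 at an unadjusted p under 0.05, 1 by DESeq2, 0 by voom), and 1 with the block.

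Enzymes that act on receptors and downstream of G proteins gave 1 call each, of 7 and 15 genes tested. Over all genes tested, 1.96% were called higher. Among 8 receptor kinases and arrestins, of which 7 were tested, Adrbk2, which encodes GRK3, was higher, at 15.9, 7.56 and 5.82 CPM in ILT3+ libraries 1, 2 and 3, against 0.360, 0.550 and 0.218 CPM in ILT3- libraries (log2 fold change 4.66, SE 0.70, adjusted p = 0.0183). Its ILT3- values come from 3, 7 and 3 reads, of which 0 lay in exons, so it passed the expression filter only through the ILT3+ libraries. Its fold also depends on the read class. The log2 fold change was 8.88 on exon reads (adjusted p = 0.0310) and 3.76 on intron reads, where it did not pass (adjusted p = 0.124). Among 19 effectors, of which 15 were tested, Plcb4, a phospholipase C driven by Gq, was higher, at 167, 83.5 and 77.7 CPM in ILT3+ libraries 1, 2 and 3, against 27.3, 23.6 and 21.9 CPM in ILT3- libraries (log2 fold change 2.17, SE 0.33, adjusted p = 0.0184). Both calls were lost without ILT3+ library 2 or 3 or ILT3- library 2 or 3, with adjusted p of up to 0.105. An unadjusted edgeR p under 0.05 was seen for 6 of the 15 effectors, against 1889 of all 13694 genes tested. DESeq2 called 2 effectors, against 948 of 13384 genes, and voom called 1 effector. With the block 2 effectors were called higher and 0 lower, against 573 and 359 of all 13694 genes tested. Of the cAMP phosphodiesterases 8 were tested and edgeR called 0 (1 at an unadjusted p under 0.05, 1 by DESeq2, 1 by voom), and 1 with the block. Among 9 genes with a related RGS domain outside the family, all tested, edgeR called 0 (1 at an unadjusted p under 0.05, 1 by DESeq2, 0 by voom). The exchange factor Arhgef1, which acts downstream of G12/13 subunits and was named after its value was seen, was at 290, 273 and 294 CPM in ILT3+ libraries 1, 2 and 3, against 1019, 497 and 436 CPM in ILT3- libraries. The groups did not overlap, and the log2 fold change was -1.19 (adjusted p = 0.131, with the block 0.0478), or -0.69 without both libraries numbered 1 (adjusted p = 0.0476).

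**Figure D5:**
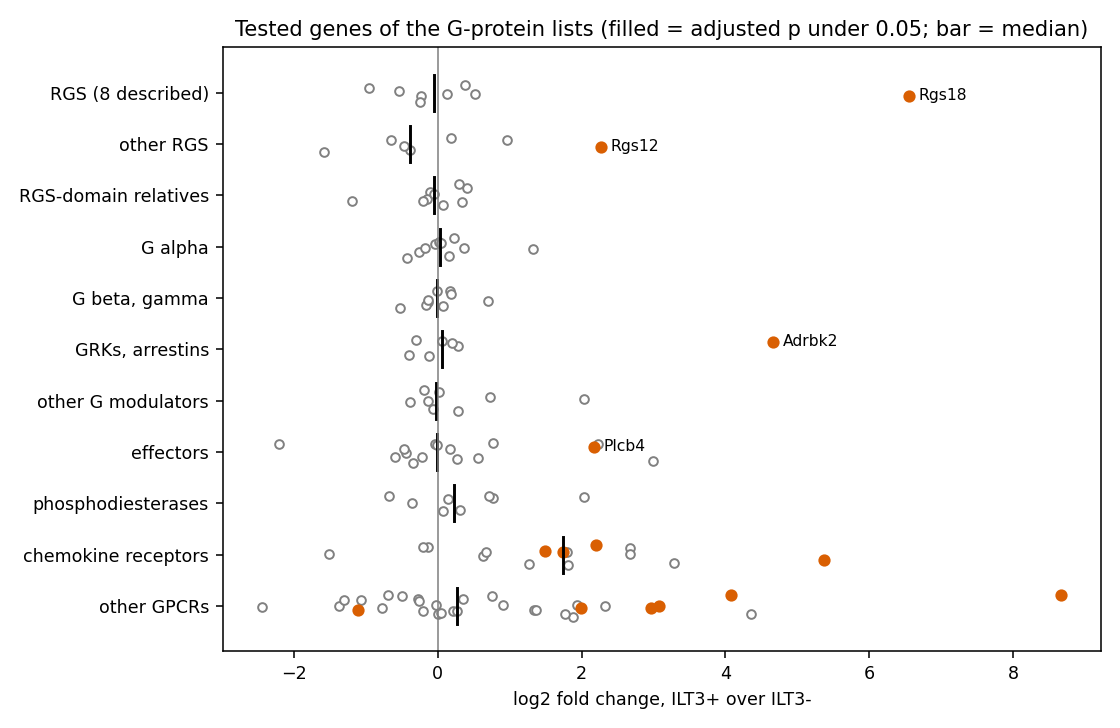
Log2 fold change of ILT3+ over ILT3- (x axis) of each tested gene in the 8 RGS members and in 10 further lists of the G-protein pathway (y axis). Filled points have an adjusted p under 0.05 and vertical bars are list medians. The lists were chosen with earlier results of these data known. The chemokine receptors have the highest median, 1.74, and the RGS members one of -0.06.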

How the data were processed

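Total RNA of 3 ILT3+ and 3 ILT3- samples was sequenced after SmartSeq V2 amplification of full-length cDNA, per the labels' protocols. The authors deposited 1 table per sample with total and unique read counts per gene, exon and intron, per the file headers. The submitters' processing notes name the build GRCm38; the aligner, the counter and strand use were not given in the sources used here. Total gene reads, which include introns and reads that also match elsewhere, were tested in R 4.3.3 with edgeR 4.0.16, using TMM factors, its default filter (minimum count 10, total 15) and a robust quasi-likelihood fit on group, Benjamini-Hochberg adjusted over 13694 genes at 0.05. The SE was taken as fold change (log2) over the square root of F, and CPM counts reads per 1000000 TMM-scaled gene reads. Level per length is total exon reads per kilobase of deposited exon length on the same scale. No 2 libraries were alike within sampling noise, and each was counted as 1 sample. This check cannot tell separate animals from separately amplified RNA of the same animals.

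The 8 members and the lists of other genes were chosen with earlier results of these data known. Named were all members, the sort marker genes, of each list up to 4 called genes by smallest p (1 of which is counted but not reported by name here), and for a called member the 3 most similar genes of at least 10 CPM; Rgs9, Rgs11, Gna15, Arhgef1, Gpr174, Cd5 and Cd28 were named after their values were seen. By name, 249 symbols of the lists were found, 3 through RefSeq synonyms and 3 were not matched. Libraries of numbers 1, 2 and 3 deviated together from their group means (correlations 0.40, 0.26 and 0.27, over a bound of 0.1), so pairing by number was accepted. This pairing comes from the data and is not in the labels. ILT3+ library 2 with ILT3- library 3 (0.16) and ILT3+ library 3 with ILT3- library 2 (0.12) also lay over the bound. The check thus sets the libraries numbered 1 apart but does not show which of those numbered 2 and 3 belong together. The test was tried on simulated data. Alternatives used limma 3.58.1 and DESeq2 1.42.0.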

Additional observations from a re-analysis of the deposited data

Results flagged for a closer look

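Reads that cross from exon to exon entered none of the tests above and were described only with Rgs19. Scaled to library size, the groups were apart on them for 3 of the 15 tested RGS genes, against 14.6% of all genes tested. Of these 3, Rgs18 and Rgs12 were higher in ILT3+ and Rgs19 was lower. Rgs18 had 8 such reads in the ILT3+ libraries together (2, 5 and 1), against 0 in the ILT3- libraries. Rgs12 had 188 in the ILT3+ libraries (34, 77 and 77), against 26 in the ILT3- libraries (0, 10 and 16). The Rgs18 count rests on few reads in each library.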

How the results depend on the processing

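The number of genes called was 316, and the number of members called was 1. On intron reads they were 78 and 0 (7 members tested), on exon reads 0 members were called, and DESeq2 called 948 genes and 1 member. Leaving out 1 library gave 31 to 322 genes and 0 to 1 members. With the number as a replicate block they were 932 and 3, which includes 313 of the 316 genes. Without both samples numbered 1 they were 786 and 3. Settings added after the data were seen were the block without one pair (1701 genes and 4 members without pair 1, 129 and 0 without pair 2, 96 and 0 without pair 3) and the block on exon reads (700 genes, 2 members). Fits without ILT3+ or ILT3- library 1 called 257 and 322 genes, and those without any other single library called 31 to 67. The cause of these changes between settings was not tested. Among members, leaving out 1 library turned the log2 fold change of Rgs1 (range -0.32 to 1.60), Rgs14 (-0.48 to 0.15) and Rgs16 (-0.22 to 0.70), and other settings turned those of Rgs16 (-0.076 with the block and without pair 2) and Rgs19 (0.31 on intron reads). Rgs2, Rgs3, Rgs10 and Rgs18 kept theirs in all settings that gave a value. The log2 fold change of Foxp3, near 0, took the other sign in 10 settings. It was 0.0066 with upper quartile factors, 0.044 without a filter, 0.022 with voom, 0.024 with the block, 0.021 with the block on exon reads, -0.14 to 0.23 with 1 library left out, 0.35 without both samples numbered 1 and 0.35 with the block and without pair 1. The median log2 fold change of all genes was -0.022 with TMM factors, -0.026 with the size factors of DESeq2 and -0.0075 with upper quartile factors. Levels per length moved by more than the SD between replicates for Rgs3 on unique exon reads (5.05 in ILT3+, 3.50 in ILT3-) and on gene reads (11.7 in ILT3+, 8.93 in ILT3-), and on gene reads for Rgs18 in ILT3+ (1.89) and Rgs19 in ILT3- (55.4). The deposited RPKM was not run as an alternative. Depth limits Rgs18, whose ILT3- libraries lie at or under 3 reads.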
